A study of Mus musculus with 12 samples.

Results

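The CCN genes encode secreted matricellular proteins, which sit in the extracellular matrix and alter signalling there without being structural parts of it. The 5 genes followed here were Ccn1, Ccn2, Ccn3, Ccn4 and Ccn5, which older annotations call Cyr61, Ctgf, Nov, Wisp1 and Wisp2. They were taken by name through their Ensembl identifiers from the 47729 genes counted in each library. The remaining relative, Ccn6 (Wisp3), had 0 to 8 fragments per library and was not tested.

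RNA was sequenced from 6 mouse cell lines of liver cancer driven by BRAFV600E, the constantly active form of the kinase BRAF. The primary lines, T1 to T3, were derived from liver tumours, and the metastasis lines, M1 to M3, from lymph nodes with metastases. All 6 carry the genotype label BRAFV600E with knockout of p53, and the study's text names hepatocyte-specific BRAFV600E with deletion of Trp53 or Cdkn2a. For every line there was 1 library of cells kept for 48 h in the solvent DMSO and 1 of cells kept for 48 h in 2 µM PLX4720, an inhibitor of mutant BRAF, so each of the 4 groups held 3 lines and the line is the replicate. All cells grew in the same medium with fetal bovine serum. The labels do not say which lines share an animal, and 1 number recurs in the table names of T3, M2 and M3. P-values therefore measure the spread between these lines, whose independence is not known.

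CCN proteins are built from modules that resemble those of other secreted proteins: an IGFBP-like module, a von Willebrand type C module, a thrombospondin repeat and, in most members, a cystine knot at the C-terminal end. They bind integrins, proteoglycans and growth factors, and proteases such as matrix metalloproteinases cut them. Ccn1 and Ccn2 are textbook targets of YAP and TAZ with TEAD factors and of SRF with its MRTF cofactors, and Ccn2 is also induced by TGF-beta. In the liver, Ccn2 is known as a product of activated stellate cells and of injured hepatocytes in fibrosis, and Ccn1 for driving senescence of myofibroblasts.

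On GRCm38, Ccn1 (ENSMUSG00000028195) spans chr3, 145646976 to 145649981, on the minus strand. On the plus strand lie Ccn2 (ENSMUSG00000019997; chr10, 24595442 to 24598683), Ccn3 (ENSMUSG00000037362; chr15, 54745702 to 54754039), Ccn4 (ENSMUSG00000005124; chr15, 66891320 to 66923201) and Ccn5 (ENSMUSG00000027656; chr2, 163820861 to 163833146). Their counted exons sum to 2019, 2861, 2869, 5518 and 1924 bp in that order.

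The 5 genes share a stretch of the IGFBP-like module, shown to make the kinship of the members visible. Capitals mark the cysteine codons, and each line gives 24 coding bases, 5′ to 3′ on the gene's own strand, from the GRCm38 reference.
Ccn1: ggcTGCggcTGCTGTaaggtcTGC
Ccn2: ggcTGCggcTGCTGCcgcgtcTGC
Ccn3: ggcTGCtccTGCTGTccggtgTGC
Ccn4: ggcTGTgaaTGCTGTaagataTGT
Ccn5: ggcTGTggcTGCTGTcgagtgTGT
All 5 stretches place 4 cysteine codons at the same positions, because each was found by searching for a glycine and cysteines in that spacing. They lie in exon 2 of the transcript used for Ccn1 (chr3:145649331-145649354, minus strand), Ccn2 (chr10:24595966-24595989, plus strand), Ccn3 (chr15:54746265-54746288, plus strand) and Ccn4 (chr15:66906545-66906568, plus strand), and in exon 3 for Ccn5 (chr2:163825225-163825248, plus strand). The coding sequences run to 379, 348, 354 and 367 residues for Ccn1 to Ccn4 and to 251 residues for Ccn5, the member known to lack the C-terminal module. Aligned residues were identical at 52.0% between Ccn1 and Ccn2, the closest pair, and at 39.9% between Ccn4 and Ccn5, the most distant.

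Only Ccn1 was found in the RefSeq promoter table used here (build GRCm38.p6). Its 250 bases before the transcription start, on the minus strand at chr3:145649986-145650235, are printed because they hold the letters of a TEAD-type motif, in capitals.
Ccn1 promoter: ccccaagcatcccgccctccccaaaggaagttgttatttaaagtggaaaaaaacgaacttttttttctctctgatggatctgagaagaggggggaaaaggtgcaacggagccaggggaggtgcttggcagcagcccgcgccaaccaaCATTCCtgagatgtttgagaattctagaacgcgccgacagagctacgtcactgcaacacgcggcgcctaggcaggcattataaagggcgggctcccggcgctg
The letters CATTCC stood 103 to 98 bases before the start and TATAAA 25 to 20 bases before it, both on the gene's strand. On either strand of the same 250 bases before the start, CATTCC was present in 12.6% of the 32851 promoter windows in the table and TATAAA in 12.4%. The AP-1-type letters TGANTCA (6.75% of windows), the CArG box (1.47%), the SMAD-type letters CAGAC (42.2%) and the CREB-type letters TGACGTCA (1.55%) had no match in the Ccn1 window. These matches describe letters only.

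Counted fragments ran from 31992512 to 39288748 per library. Fragments of mitochondrial genes made up 0.189% to 0.712% of 11 libraries and 3.68% of T3 under PLX4720, which therefore stood apart. Beside the labelled liver tumour identity, hepatocyte markers were read in CPM, the fragments of a gene per 1e6 scaled fragments of its library. The summed level of 10 of them was 779 to 1864 CPM in primary lines, carried by Apob and Hnf4a, and 0.238 to 4.60 CPM in metastasis lines, where Alb, Ttr, Serpina1a and Tat were at 0 in all 6 libraries. The metastasis lines therefore lacked these markers of the labelled cell type, but most were low in primary lines too. There Tat, Cyp2e1 and Cps1 reached at most 0.267, 0.136 and 0.02785 CPM. Apoa1, Ttr, Serpina1a and Fgb had primary medians of 0.727, 0.991, 0.590 and 0.321 CPM. Apob (at least 627 CPM in primary, at most 4.54 CPM in metastasis lines) and Hnf4a (120.8 and 0.203 CPM) set the sites apart most clearly. The 12 fibroblast and stellate cell markers summed to 141 to 1339 CPM under DMSO and 546 to 2708 CPM under PLX4720 in metastasis lines, against 1.45 to 35.2 CPM in primary lines. A few genes carried that sum, since under DMSO 6 of the 12 reached 1 CPM in any metastasis library and 4 in any primary one. Pdgfra ran from 45.9 to 1439 CPM and Pdgfrb from 72.5 to 595 CPM in metastasis lines, whereas Lrat was at 0 throughout, Hand2 was at most 0.0298 CPM, and Des, Reln, Ngfr and Rgs5 had the higher median in primary lines. The 8 smooth muscle markers summed to 129 to 825 CPM under DMSO and 1794 to 3799 CPM under PLX4720 in metastasis lines, mostly from Acta2, against 38.4 to 101 CPM in primary lines, while Myh11 stayed at or below 0.849 CPM. Smtn and Myocd went the other way. The Smtn median was 63.2 CPM in primary and 40.6 CPM in metastasis lines. Myocd reached at most 0.829 CPM in primary and 0.0303 CPM in metastasis lines. The 4 mesothelial markers summed to 502 to 789 CPM in primary lines and to at most 2.15 CPM in metastasis lines, almost all from Msln. The biliary list of 6 reached 1207 CPM or more in every library. Spp1 carried it in metastasis lines, while Krt19 stood at 830.1 to 1347 CPM in primary and at most 8.60 CPM in metastasis lines. Endothelial and leukocyte lists were lower, at most 75.1 and 34.2 CPM, with Pecam1 at most 0.669 and Ptprc at most 0.641 CPM. Whether these cell states have a part in the site differences below was not tested.

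PLX4720 raised 4 of the 5 CCN genes over all 6 lines: Ccn1, Ccn2, Ccn4 and Ccn5. The exception was Ccn3. The test was edgeR's quasi-likelihood test with the line as a block, adjusted over 16555 genes at a threshold of 0.05, which called 14.5% of all genes higher, 12.7% lower and 27.2% in either direction. The median fitted change of the 5 members was 1.55 on the log2 scale, beside 0.03 over all genes. By site, 4 of 5 rose in metastasis lines, where 12.0% of all genes were called higher and 8.36% lower, and 2 of 5 in primary lines, where 4.46% were called higher and 3.77% lower. All 5 passed the filter on low counts, but Ccn5 did so only through the metastasis libraries. Without T3, whose treated library stood apart, 4 of 5 still rose over all lines and in metastasis lines, and 1 of 5, Ccn1 (1.03, adjusted p = 0.022), in primary lines.

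**Figure D1:**
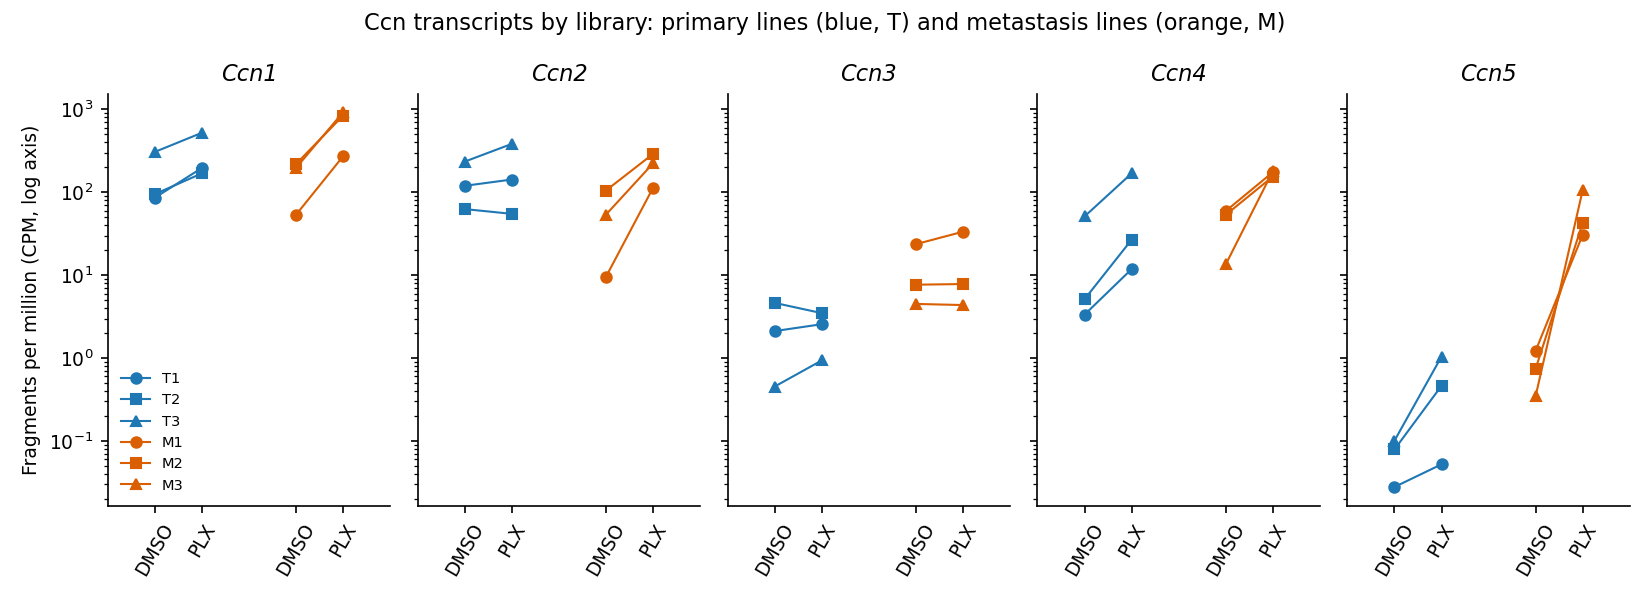
CPM (log axis) of the 5 genes in the 12 libraries, with a line joining DMSO and PLX4720 of each cell line, primary lines in blue and metastasis lines in orange. In metastasis lines every PLX4720 value of Ccn1, Ccn2, Ccn4 and Ccn5 lies above every DMSO value, while the Ccn3 ranges overlap.

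Ccn1, a ligand of integrins that promotes adhesion and angiogenesis, was measured at 86.1 CPM under DMSO and 197 CPM under PLX4720 in T1, 95.1 and 169 CPM in T2, and 307 and 522 CPM in T3. In the metastasis lines it went from 53.6 to 272 CPM in M1, from 219.6 to 841 CPM in M2 and from 197 to 924 CPM in M3. It was thus higher with the inhibitor in each line, which was so for 12.7% of all genes tested. The ranges under DMSO and PLX4720 overlapped in primary lines, because T3 started above the treated T1 and T2, and did not overlap in metastasis lines. Of all genes, 6.63% had every treated metastasis library above every control one. Here, as in any bulk library, a change in the share of cells with a transcript and a change in transcript per cell cannot be told apart.

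The fold in CPM was 2.28, 1.78 and 1.70 in T1, T2 and T3 and 5.07, 3.83 and 4.69 in M1, M2 and M3, so the lowest metastasis line exceeded the highest primary line. The fitted log2 change was 0.93 ± 0.11 (SE, n = 3 lines) in primary lines, with an edgeR adjusted p of 0.00500, and 2.17 ± 0.12 in metastasis lines, with an adjusted p of 2.18e-05. The difference between the sites was itself past the threshold, at 1.24 ± 0.16 on the log2 scale with an edgeR adjusted p of 0.00835. Of all genes, 1.85% were called for a difference in this direction and 1.09% in the other, and Ccn1 was the only member called. Without T2 the difference was 1.14 with an adjusted p of 0.0537, so that call needed T2. Without T3 it was 1.12 with an adjusted p of 0.0314.

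Ccn2, the connective tissue growth factor, responded unevenly among lines. In primary lines it read 119.7 CPM under DMSO and 143 CPM under PLX4720 in T1, 62.7 and 54.9 CPM in T2, and 235 and 384 CPM in T3. In metastasis lines it went from 9.55 to 113 CPM in M1, from 105 to 290.1 CPM in M2 and from 53.7 to 223 CPM in M3. T2 was the only line with less Ccn2 under the inhibitor, at 0.876 times its DMSO level (95% exact counting interval 0.825 to 0.930, counting error only). M1 had the lowest control level of the 6 lines and the highest fold, 11.8, beside 2.76 in M2 and 4.15 in M3.

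The fitted change of Ccn2 was 0.26 ± 0.32 (log2, SE, n = 3) in primary lines, which did not pass the test (edgeR adjusted p = 0.658), and 2.31 ± 0.35 in metastasis lines, which did (adjusted p = 0.00227). The difference between sites, 2.05 ± 0.47, had an edgeR adjusted p of 0.0568 and was not called. It moved past the threshold without M1 (1.5, adjusted p = 0.0129), without M2 (2.48, adjusted p = 0.0403), with DESeq2 (2.07, adjusted p = 0.0279) and without the filter on low counts (2.05, adjusted p = 7.56e-05). Exons of Ccn2 overlap 665 bp of the antisense gene Gm15270, and the recorded counting command held no strand option. Gm15270 was given 3 to 24 fragments per library.

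**Figure D2:**
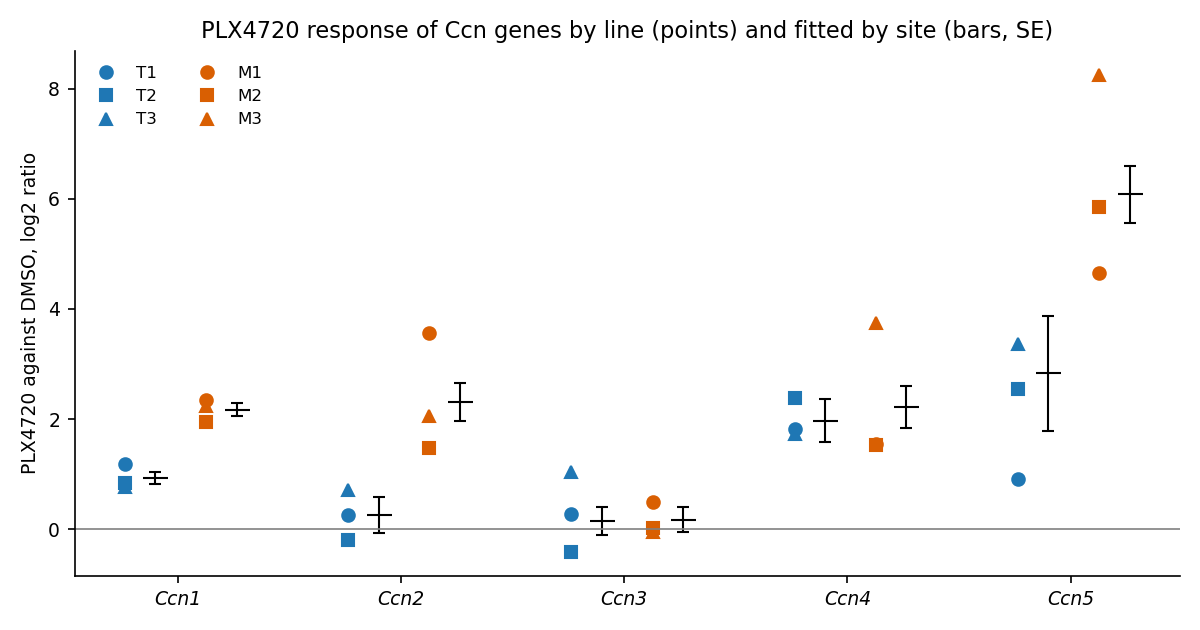
Log2 ratio of CPM under PLX4720 to CPM under DMSO for each line (points) and the fitted log2 change by site with its SE (black bars, n = 3 lines). The 3 metastasis points of Ccn1, from 1.94 to 2.34, lie above its 3 primary points, from 0.77 to 1.19, while for Ccn4 the points of M1 (1.55) and M2 (1.54) lie below the 3 primary points, from 1.73 to 2.38, and that of M3 (3.74) above them.

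Ccn4 and Ccn5 were first described as genes induced by Wnt1. Ccn4 read 3.34 CPM under DMSO and 11.8 CPM under PLX4720 in T1, 5.13 and 26.8 CPM in T2, and 51.1 and 169 CPM in T3. In the metastasis lines it went from 59.4 to 175 CPM in M1, from 53.4 to 155 CPM in M2 and from 13.5 to 179.5 CPM in M3. T3 stood nearer the metastasis lines than the other 2 primary lines under both treatments. The 3 metastasis lines differed 4.41-fold under DMSO and 1.16-fold under PLX4720, so their treated levels lay close together, at 170 ± 13.1 CPM (SD, n = 3) from 42.1 ± 25.0 CPM.

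Ccn4 rose in both sites. The log2 change was 1.97 ± 0.39 (SE, n = 3) in primary lines (edgeR adjusted p = 0.0233) and 2.22 ± 0.39 in metastasis lines (adjusted p = 0.00469). Without M3 the metastasis change was 1.52 (adjusted p = 0.00110), below the primary one. The difference between sites was 0.26 ± 0.54 with an edgeR adjusted p of 0.913, which does not show that the responses were equal. The fold was 3.54, 5.22 and 3.31 in T1, T2 and T3, 2.94 in M1 and 2.90 in M2, but 13.3 in M3. The primary call was lost when any primary line was left out, with adjusted p of 0.128 without T1, 0.116 without T2 and 0.0868 without T3. The sign of the difference between sites turned without M3, to -0.47.

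Ccn5, the short member, was close to undetected in untreated cells. In primary lines 1, 3 and 4 fragments were counted under DMSO in T1, T2 and T3, and 2, 17 and 39 under PLX4720. In metastasis lines the counts went from 41 to 1123 fragments in M1, from 25 to 1412 in M2 and from 12 to 3655 in M3. Scaled by depth, the metastasis lines went from 1.22 to 30.8 CPM, from 0.744 to 42.8 CPM and from 0.348 to 106 CPM. M3 thus held the least Ccn5 of the 3 under DMSO and the most under PLX4720, and the same was so of its Ccn4.

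The fold of Ccn5 was 25.1 in M1 (95% exact counting interval 18.4 to 35.2), 57.6 in M2 (38.8 to 89.3) and 305 in M3 (174 to 591). The intervals of the 3 lines do not overlap. In primary lines it was 1.88 in T1 (0.0977 to 111), 5.86 in T2 (1.70 to 31.2) and 10.3 in T3 (3.73 to 39.9), so the change in T1 could not be read at this depth. The fitted log2 change was 6.08 ± 0.52 (SE, n = 3) in metastasis lines, with an edgeR adjusted p of 0.000152, and 2.83 ± 1.04 in primary lines, with an adjusted p of 0.128. The size in metastasis lines depended on the lines fitted, at 6.97 without M1 (adjusted p = 1.41e-05) and 5.18 without M3 (0.000223). The primary change was 2.2 without T3 (adjusted p = 0.503) and 3.02 without T1 or T2 (0.293 and 0.285). It came under the threshold without M1 (adjusted p = 0.0331), without M3 (0.0204) and with no filter on low counts (0.0112), all with similar sizes of 2.82 to 2.84. The difference between sites was 3.25 ± 1.63 (edgeR adjusted p = 0.422) and was not called.

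Ccn3, described in other tissues as a counterweight to Ccn2 in fibrosis, did not pass the test for PLX4720 in any comparison. It read 2.12 CPM under DMSO and 2.56 CPM under PLX4720 in T1, 4.63 and 3.49 CPM in T2, and 0.454 and 0.936 CPM in T3. In metastasis lines it was 23.7 and 33.4 CPM in M1, 7.68 and 7.82 CPM in M2, and 4.50 and 4.36 CPM in M3. Values under the inhibitor were higher in 4 lines and lower in T2 and M3. The fitted log2 change over all 6 lines was 0.16 ± 0.17 (SE) with an edgeR adjusted p of 0.512, and the difference between sites was 0.02 ± 0.35 with an adjusted p of 1.

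Levels of different members were compared only after scaling to exon length, as CPM per kilobase of exon (FPKM). Ccn1 had the highest FPKM of the 5 in each of the 12 libraries and made up 49.7% to 81.0% of their sum. Ccn2 was scaled by its full 2861 bp, including the 665 bp shared with Gm15270. Counting without a strand option may have left fragments there unassigned, so Ccn2 levels and shares may be too low. In T1 under DMSO, Ccn1 and Ccn2 stood at 42.6 and 41.9 FPKM, so their order there is uncertain. Ccn2 came next in 11 libraries, and Ccn4 did in M1 under DMSO, at 21.7% of the sum. The third place went to Ccn4 in 8 libraries, to Ccn3 in 3 and to Ccn5 in M3 under PLX4720. The sum of the 5 was lowest in M1 under DMSO, at 49.6 FPKM, and highest in M3 under PLX4720, at 624.99 FPKM.

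Within that sum, the share of Ccn5 was higher and that of Ccn3 lower under PLX4720 in each metastasis line. Ccn5 held 0.150% to 1.28% of it under DMSO and 3.9% to 8.84% under PLX4720. Ccn3 held 1.30% to 16.6% under DMSO and 0.243% to 4.99% under PLX4720. Ccn2 held 6.74% to 23.2% under DMSO and 12.5% to 17.8% under PLX4720, and its share rose in M1 but fell in M2 and M3. In primary lines Ccn2 held a larger share, 30.6% to 48.8% under DMSO and 17.6% to 33.2% under PLX4720, and Ccn5 at most 0.220%. These shares are descriptions, with no test.

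**Figure D3:**
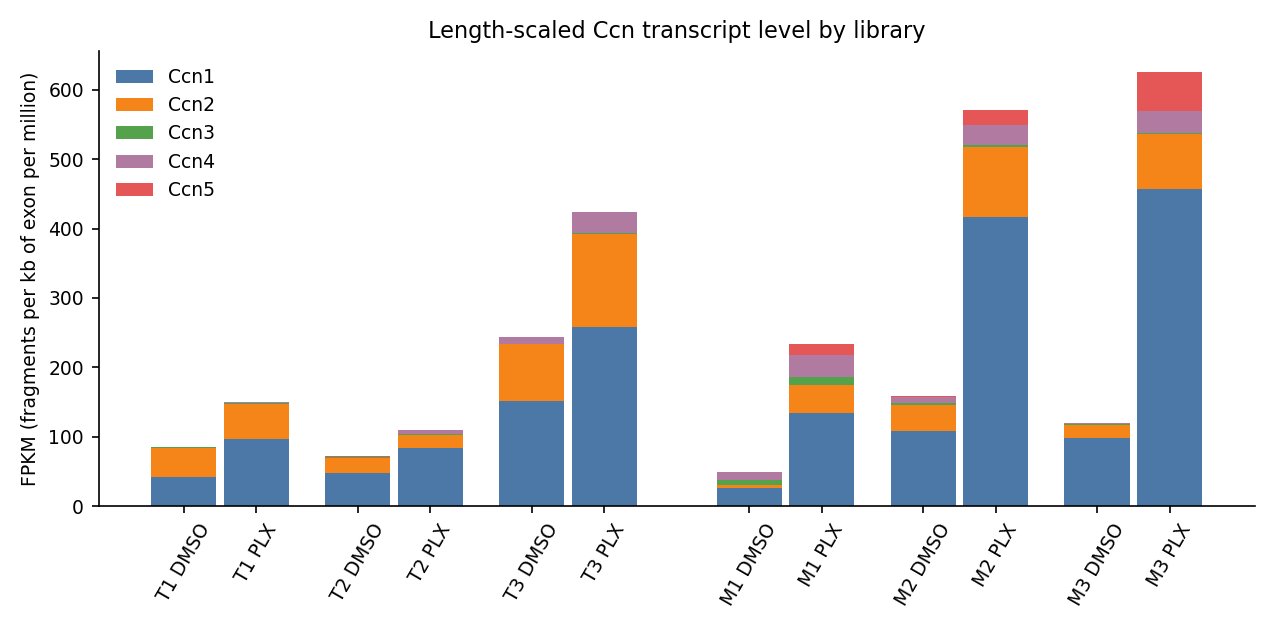
Summed FPKM of the 5 genes in each library, stacked by gene, with primary lines on the left and metastasis lines on the right. The Ccn1 segment is the tallest in all 12 bars, the M3 bar grows from 121 to 624.99 FPKM under PLX4720, and a Ccn5 segment is visible only in the treated metastasis lines.

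Between sites, Ccn5 was higher in metastasis lines under both treatments, but it entered these fits through the metastasis libraries, so the filter on low counts itself favoured a difference. Under DMSO it stood at 0.772 ± 0.438 CPM (SD, n = 3) in metastasis and 0.0692 ± 0.0374 CPM in primary lines, a fitted log2 difference of 3.42 ± 0.68 (SE) with an edgeR adjusted p of 0.0231. Among the 14992 genes tested there, 4.64% were called higher in metastasis lines and 7.49% lower. Under PLX4720 it stood at 59.9 ± 40.6 CPM and 0.519 ± 0.498 CPM, a log2 difference of 6.88 ± 1.10 with an adjusted p of 0.0110, and 5.62% of 15276 genes were called higher and 7.88% lower. With no filter the adjusted p were 0.0303 and 0.00585. The difference under PLX4720 was 7.89 without T3 (adjusted p = 0.0209) and 6.17 without M3 (0.0340). Under DMSO the primary lines together held 8 fragments, and the call was lost without any 1 of T1, T2, T3, M1 or M2 (adjusted p 0.0535 to 0.0812).

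Ccn3 had higher means in metastasis lines without passing the test, and M1 held the highest levels. It was 2.40 ± 2.10 CPM (SD, n = 3) in primary and 11.9 ± 10.3 CPM in metastasis lines under DMSO, and 2.33 ± 1.29 and 15.2 ± 15.9 CPM under PLX4720. Its site ranges overlapped under DMSO, where T2 slightly exceeded M3, and did not overlap under PLX4720, which held for 16.6% of the genes tested in the same direction. The fitted log2 differences were 2.34 ± 0.97 (edgeR adjusted p = 0.192) and 2.72 ± 0.90 (adjusted p = 0.103). Without M1 they fell to 1.36 (adjusted p = 0.421) and 1.39 (0.248), and without T2 the first was 3.25 (0.159). DESeq2 called the second, at 2.69 with an adjusted p of 0.0108.

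Ccn1, Ccn2 and Ccn4 overlapped between sites under both treatments and were not called. Ccn1 was 163 ± 125 CPM (SD, n = 3) in primary and 157 ± 90.0 CPM in metastasis lines under DMSO, a log2 difference of -0.05 ± 0.68 (SE, edgeR adjusted p = 0.976). Under PLX4720 it was 296 ± 197 and 679 ± 355 CPM, a log2 difference of 1.23 ± 0.62 (adjusted p = 0.256). Ccn2 was 139 ± 87.5 CPM in primary and 56.1 ± 47.8 CPM in metastasis lines under DMSO, and 194 ± 170 and 209 ± 89.4 CPM under PLX4720, with adjusted p of 0.401 and 0.929. For Ccn4 the log2 differences were 1.09 ± 1.11 and 1.32 ± 0.90 (adjusted p = 0.605 and 0.410), and the second passed without T3 (3.16, adjusted p = 0.0140).

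Across the 12 libraries, the levels of Ccn1 and Ccn2 as log2(CPM + 1) had a Pearson correlation of 0.81, and their changes in the 6 lines one of 0.88. Ccn1 and Ccn4 correlated at 0.70 in level but at 0.22 in change, and Ccn4 and Ccn5 at 0.72 and 0.57. Ccn3 ran against Ccn2 in level, at -0.54. Libraries of a line share that line and libraries of a treatment share that treatment, so these values describe the data and carry no test.

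By the same measure over 12 libraries and 10979 genes, the genes with the pattern most like Ccn1 were Myo1c (0.949), Heatr6 (0.939), Tjap1 (0.938), Palld (0.925), an actin-bundling protein, and Lats2 (0.911), a Hippo pathway kinase. For Ccn2 they were Kirrel3 (0.921), Prrc2b (0.904), Maml2 (0.884), Palld (0.882) and Amotl2 (0.871), and so Palld stood on both lists. For Ccn3 they were Arsk (0.972), Gtdc1 (0.965), Ppt1 (0.964), Ttc8 (0.963) and Fntb (0.958). Ccn4 ran most closely with Map7d1 (0.942), Ccl9 (0.939), Arl2 (0.936), St5 (0.925) and Arhgef17 (0.924). Ccn5 ran with Adamts5 (0.953), an aggrecan-cutting protease, Aspn (0.951), a small proteoglycan, Msrb1 (0.946), Ipo13 (0.941) and Prkab2 (0.938).

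Among the regulators of the family, Yap1 RNA did not pass over all lines (log2 change 0.07 ± 0.09, edgeR adjusted p = 0.639) and Wwtr1, the gene of TAZ, did not pass (-0.23 ± 0.10, adjusted p = 0.123). Wwtr1 did fall in metastasis lines, by 0.79, and its difference between sites was called at -1.11. Tead1 and Tead3 rose by 0.40 and 0.64 on the log2 scale (adjusted p = 0.0444 and 0.00181), Tead4 fell by 0.85 (adjusted p = 0.00109), and Tead2 did not pass (0.42, adjusted p = 0.117). Tead4 went from 33.7 to 13.3 CPM in M1, from 24.3 to 8.95 CPM in M2 and from 41.1 to 14.3 CPM in M3. In primary lines, where it was not called lower, it went from 51.1 to 31.0 CPM in T1 and from 33.0 to 27.9 CPM in T2. In T3 it rose from 36.1 to 40.3 CPM. The Tead1 call was lost without T1, T3, M1, M2 or M3, with adjusted p between 0.0708 and 0.112. Of the 16 TEAD factors, cofactors and Hippo kinases tested, 4 rose and 2 fell, with a median of -0.03. Over all genes, 14.5% were called higher and 12.7% lower.

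Most of the other YAP and TAZ targets also rose. Of 24 tested outside the CCN genes, 15 rose over all lines and 0 fell, with 1 lower at an unadjusted p under 0.05 by edgeR and 1 called lower by DESeq2, and the median log2 change was 0.61. The edgeR shares over all genes were 14.5% higher and 12.7% lower. They included Tgfb2, a TGF-beta ligand (2.79 ± 0.14), Ccdc80 (2.16 ± 0.12), Amotl2, a YAP-binding angiomotin (1.48 ± 0.08), and Dlc1 (1.22 ± 0.08), with edgeR adjusted p of 2.46e-05 to 5.76e-05. In primary lines 9 rose and 1 fell, beside 4.46% and 3.77% of all genes. In metastasis lines 15 rose and 1 fell, beside 12.0% and 8.36%. For 5 the response was called larger in metastasis lines, beside 1.85% of all genes with a difference in this direction. Amotl2 was among those 5, with a difference of 1.38. Ccn1, which is not on this list, was called in the same direction.

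The list of SRF, its MRTF cofactors and their cytoskeletal targets rose almost throughout. Over all lines 18 of 19 tested genes rose and 0 fell, by edgeR also at an unadjusted p under 0.05 and by DESeq2, with a median log2 change of 0.96. The shares over all genes were 14.5% higher and 12.7% lower. Srf, Mrtfa and Mrtfb rose by 0.44, 0.45 and 0.68 on the log2 scale, and among the targets Acta1 by 4.01, Lmod1 by 3.63, Cnn1 by 2.74 and Vcl by 0.87, with edgeR adjusted p of 4.01e-05 to 0.00508. In primary lines 7 of the 19 rose and in metastasis lines 19 of 19, beside 4.46% and 12.0% of all genes. Only 15 of the list were tested in the fit under DMSO. Some of the 19 thus needed treated libraries to pass the filter on low counts, which itself favoured a rise for them. Acta1 was among them, with 0.0526 to 0.808 CPM under DMSO. Lmod1 passed only through the treated metastasis lines, at 6.37 to 14.7 CPM, with at most 0.214 CPM in any other library. Acta2, Actg2, Cnn1, Lmod1, Tagln and Myocd stand on both this list and the smooth muscle marker list, whose summed level is given above.

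Of 15 TGF-beta targets and feedback genes, 11 rose over all lines and 0 fell, by edgeR also at an unadjusted p under 0.05 and by DESeq2, with a median log2 change of 0.53. The shares over all genes were 14.5% higher and 12.7% lower. Thbs1, thrombospondin 1, rose by 1.69, the inhibitory Smad6 by 1.44, the collagen-binding integrin chain Itga11 by 3.15 and Pmepa1 by 0.66, with edgeR adjusted p of 2.73e-05 to 0.000440. In primary lines 2 rose and in metastasis lines 12, beside 4.46% and 12.0% of all genes. For 6 the response was called larger in metastasis lines, beside 1.85% of all genes. Itga11 had at most 0.776 CPM in any primary library and 0.174 to 0.298 CPM in metastasis lines under DMSO. Only the treated metastasis lines held more, at 6.27 to 15.1 CPM, and T2 stood at 0.158 CPM under DMSO and 0.163 CPM under PLX4720.

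**Figure D4:**
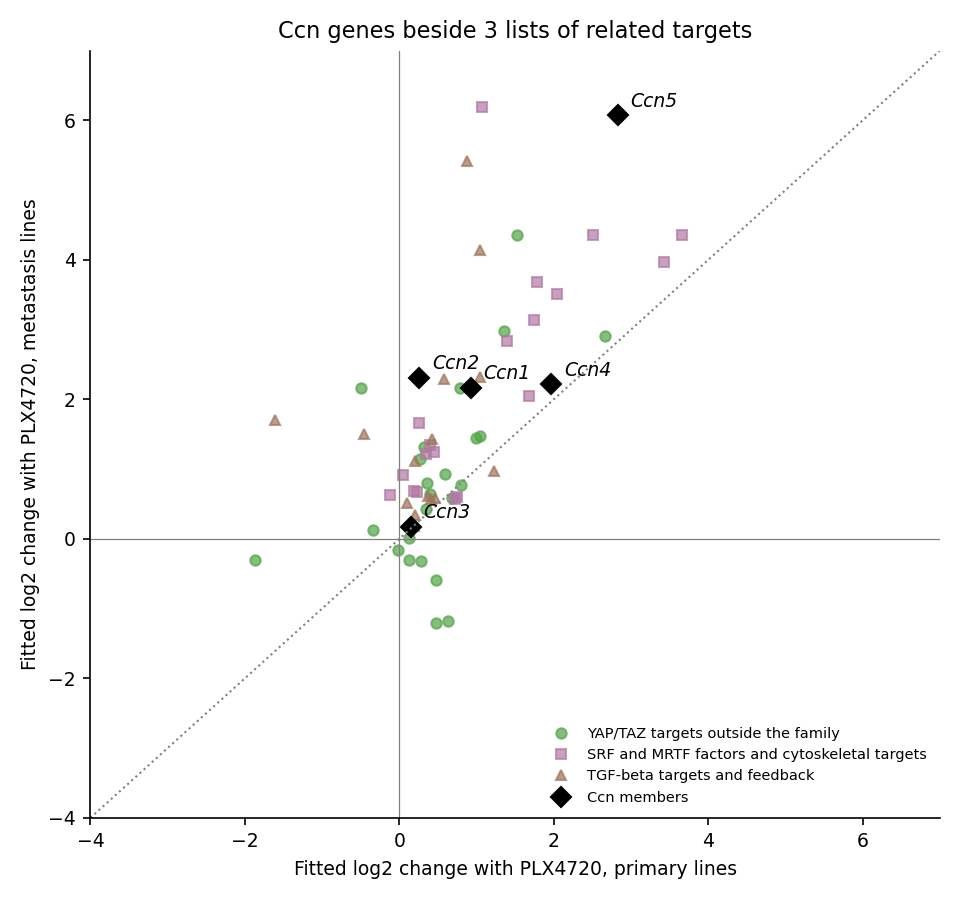
Fitted log2 change with PLX4720 in primary lines (horizontal) against metastasis lines (vertical) for the 5 CCN genes (black diamonds) and 3 lists of related targets, with the dotted line marking equal change. Ccn1, Ccn2 and Ccn5 lie above that line, at 2.17 against 0.93, 2.31 against 0.26 and 6.08 against 2.83, while Ccn4 and Ccn3 lie close to it.

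Canonical Wnt targets, read because Ccn4 and Ccn5 were described as Wnt-induced, were called at about the share of all genes, 3 of 11 beside 27.2%. Over all lines Notum rose by 0.92 on the log2 scale, Apcdd1 fell by 0.85 and Ccnd1 fell by 0.57, with edgeR adjusted p of 0.000573 to 0.00425, and 8 were not called. Between sites, 4 of 10 were lower in metastasis lines under DMSO and 5 of 11 under PLX4720, with 1, Apcdd1, higher there. The shares of all genes called lower were 7.49% and 7.88%, and 5.62% were called higher under PLX4720. Sp5 stood at 10.8 to 58.3 CPM in primary lines and at 0 to 0.0298 CPM in metastasis lines under DMSO, and Rnf43 at 2.85 to 169.8 CPM and 0 to 0.145 CPM. Both genes entered these fits only through the primary libraries, so the filter on low counts itself favoured that direction.

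Among the receptors and binding partners of CCN proteins, 6 of 22 tested rose and 2 fell over all lines, beside 14.5% and 12.7% of all genes. Itga6, a chain of the laminin receptors that also bind Ccn1, fell by 1.62 on the log2 scale. Itgb5, a vitronectin receptor chain, rose by 0.64, fibronectin (Fn1) by 0.87 and perlecan (Hspg2) by 0.82, with edgeR adjusted p of 0.000242 to 0.00127 for these 4. Between sites, Lrp1, an endocytic receptor for Ccn2, was higher in metastasis lines by 2.50 under DMSO (adjusted p = 0.0180). That call was lost without T3, M2 or M3, with adjusted p of up to 0.0569, and with M2 and M3 summed as 1 line. The proteoglycan Bgn was 147 to 273 CPM in metastasis lines and at most 0.421 CPM in primary lines under DMSO. Bgn needed the metastasis libraries to pass the filter on low counts, which itself favoured that direction.

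Of 11 proteases known to cut CCN proteins, 3 rose and 2 fell over all lines, beside 14.5% and 12.7% of all genes. Adamts1 rose by 2.11, Htra1 by 1.02 and Mmp14 by 0.62, and Mmp3 fell by 1.88, with edgeR adjusted p of 2.46e-05 to 0.00741. Mmp2 was 64.5 to 171 CPM in metastasis lines and 0.158 to 1.99 CPM in primary lines under DMSO. It too needed the metastasis libraries to pass the filter on low counts, which favoured that direction. Among 9 tested genes with a related IGFBP-type module, 4 rose over all lines, namely Htra1, Igfbp7 (0.95), Crim1 (0.82) and Kazald1 (0.50). By edgeR 0 of the 9 fell, with 2 lower at an unadjusted p under 0.05 and 1 called lower by DESeq2. The same shares of all genes, 14.5% higher and 12.7% lower, stand beside these counts. The Kazald1 call was lost without T1, T3 or M2 (adjusted p 0.0568 to 0.0708). In primary lines 1 of the 9 rose and 3 fell, beside 4.46% and 3.77% of all genes.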

How the data were processed

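Per the file headers, the authors counted fragments on exons with featureCounts 1.5.2 (Ensembl release 84, GRCm38), keeping pairs with both ends mapped and recording no strand option, and deposited these raw counts. The name of an aligner was not given in the sources used here. Libraries were stranded total RNA after ribosomal RNA removal, per the labels' protocols. Genes were filtered with filterByExpr, scaled by TMM and tested with edgeR 4.0.16 in R 4.3.3 by the quasi-likelihood test, with Benjamini-Hochberg adjustment over all genes tested and a threshold of 0.05. The PLX4720 fit held all 12 libraries, a block per line and 1 treatment term per site (4 residual degrees of freedom), and the site fits held the 6 libraries of each treatment (also 4). Both libraries of a line deviated together from their group means, with correlations of 0.858 to 0.933, and the pairing comes from the line names in the labels. DESeq2 1.42.0 was an alternative, and the fits were tested on simulated data. CPM used TMM-scaled library sizes, and FPKM is CPM per kilobase of exon. SE was taken from the log2 change and the square root of the F value, and is approximate for low counts. Counting intervals at 95% (exact Clopper-Pearson) cover counting error only. Libraries of a group differed beyond counting noise (chi-square per degree of freedom at least 142).

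The members and lists were chosen with earlier results of these data known. The naming rule took the 5 members and, for 8 lists of related genes, YAP, TAZ, TEAD and SRF factors, up to 4 genes with the smallest p over all lines and up to 2 per site comparison. Genes of the lists named outside that rule (Wwtr1 by site, Amotl2 by difference between sites, Apcdd1 under PLX4720) were chosen after their values were seen. For likeness it took 5 genes per member with the highest Pearson correlation of log2(CPM + 1) among genes with a mean log2 CPM of at least 1. Another 7 lists held cell type markers. Coding stretches came from GENCODE transcripts on GRCm38 and the promoter from RefSeq. No protein sequences were used here.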

Additional observations from a re-analysis of the deposited data

Results flagged for a closer look

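The PLX4720 effect on Ccn1 differed between sites by a test of the difference itself. The log2 effect was 1.24 ± 0.16 (SE) larger in metastasis than in primary lines, with an edgeR adjusted p of 0.00835, and each of the 3 metastasis lines had a larger fold (3.83 to 5.07) than each of the 3 primary lines (1.70 to 2.28). Leaving out each line in turn gave 1.12 to 1.33, with adjusted p of 0.00604 to 0.0537. The summed fibroblast and smooth muscle marker levels, which are higher in metastasis lines, go with the same split of lines, and their part in the result was not tested.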

How the results depend on the processing

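Alternatives were DESeq2 size factors, DESeq2, no filter on low counts, leaving out each line, M2 and M3 summed as 1 line, each site fitted alone, and fits with or without the replicate block. For the members, 303 of the values kept their direction and their side of the threshold, 20 lost the call, 9 gained it and 15 turned sign. Without pairing by line (no replicate block), 1 member, Ccn5 (4.55, adjusted p = 0.0476), was called over all lines, 0 in primary lines, 0 in metastasis lines and 0 for the difference between sites. At an unadjusted p under 0.05, edgeR gave 1, 2 and 1 members in the last 3. All genes called without the block were 18 over all lines, 1 in primary lines, 15 in metastasis lines and 0 for the difference (279 at an unadjusted p under 0.05). The numbers of primary and metastasis lines are only names: same-numbered lines correlated at -0.0995 to 0.00525 in their deviations. With these numbers as a replicate block, 0 members (2 at an unadjusted p under 0.05) and 1106 genes were called between sites under DMSO, where Ccn5 had an adjusted p of 0.0918, and 1 member under PLX4720. DESeq2 called 2 members and 898 genes for the difference between sites, 3273 genes between sites under DMSO, and 2 members and 3547 genes under PLX4720. With no filter, 2052 genes were called in primary lines, and 2 members and 996 genes for the difference. Fitted alone, the sites gave 2491 genes in primary and 2195 in metastasis lines. With M2 and M3 summed, 1177 genes were called between sites under DMSO.

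Leaving out 1 line gave 2417 to 4384 genes over all lines, 1 to 3 members and 91 to 2252 genes in primary lines, 1891 to 3090 genes in metastasis lines, 0 to 2 members and 122 to 798 genes for the difference, 0 to 1 members and 901 to 1595 genes between sites under DMSO, and 1 to 2 members and 1097 to 1712 genes under PLX4720. Signs turned for values that were not called. Ccn3 was -0.0443 in primary lines with no replicate block and ran from -0.0699 to 0.577 there, and from -0.00772 to 0.248 in metastasis lines, without 1 line. Its difference between sites was -0.0418 with DESeq2 and -0.433 to 0.232 without 1 line. The Ccn4 difference was -0.0711 with M2 and M3 summed and -0.466 to 0.637 without 1 line. Between sites, Ccn1 under DMSO was 0.00229 with no filter and -0.371 to 0.825 without 1 line, and Ccn2 under PLX4720 was -0.0503 with M2 and M3 summed and -0.344 to 1.11 without 1 line. Yap1 over all lines ran from -0.047 to 0.129 without 1 line. The cause of these changes was not tested. Depth limits Ccn5 in primary lines, with 1 to 4 fragments under DMSO, and Ccn6.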
